A study of Mus musculus with 8 samples.

Results

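Aromatase and 8 other enzymes that convert androgens, oestrogens and glucocorticoids were followed in the epididymal white fat pad of male mice, an intra-abdominal adipose depot. The set was chosen by name, with earlier results of these data known (Cyp19a1, Hsd17b4, Hsd17b7, Hsd17b11, Hsd17b12, Hsd11b1, Srd5a1, Srd5a3 and Cyp1b1), and all 9 were found by Ensembl identifier among the 34866 genes of the deposited table. The 4 control libraries came from mice labelled Aromatase flox/flox, whose Cyp19a1 alleles carry loxP sites. The 4 knockout libraries came from mice labelled aP2-Cre;Aromatase flox/flox, which have the same floxed alleles and also the aP2-Cre transgene. In this transgene, Cre is under the aP2 (Fabp4) promoter, which is known to be active in adipocytes and also in other cells, macrophages among them. No group with the transgene and unfloxed alleles was analysed here, so the transgene and the deletion cannot be told apart. The ages of the mice and the exons between the loxP sites are not given in the sources used here. The comparison was made to look for adipose genes downstream of Cyp19a1 that bear on phosphorus metabolism.

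Steroid hormones are not only secreted by gonads and adrenals but are also remade inside target tissues. Aromatase, a cytochrome P450 of the endoplasmic reticulum, turns androgens into oestrogens, and in males adipose tissue is known as one of the places where this happens outside the testis. Hydroxysteroid dehydrogenases then switch steroids between weak and strong forms by reducing a keto group or oxidising a hydroxyl group, reductases of the Srd5a family saturate the steroid ring, and Cyp1b1 hydroxylates oestrogens. Hsd11b1 does the equivalent for glucocorticoids, making active corticosterone from its inert keto form within adipose tissue.

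The libraries held 1538427 to 3053565 estimated counts, control replicate 4 being the smallest. Of the 12480 genes past the low-count filter, 21 (0.168% of those tested) passed the edgeR quasi-likelihood test at an adjusted p of 0.05, a number that became 4 when control replicate 2 was left out and 43 when control replicate 4 was. The adipocyte identity of the tissue was checked on 20 adipocyte genes, which together took 62019 to 93362 CPM (counts scaled to the same library total) in every library. Of 18 epididymis and testis genes, 5 were at 0 in all libraries, Crisp1, Lcn5 and Lcn8 among them. Another 4 passed the low-count filter, and 1 gene removed by it still held 184 counts over all libraries. The list summed to 40.6 to 86.7 CPM, so its transcripts were low but not absent. Macrophage markers separated the genotypes. Their sum over 22 genes lay between 1331 and 1473 CPM among controls and between 2080 and 2487 CPM among knockouts. Of 21 tested, 20 had a higher and 1 a lower mean in the knockout. At an adjusted p under 0.05 in edgeR, 5 (Cd68, Ctss, Gpnmb, Lyz2 and Mmp12) were called higher and 0 lower. Of all tested genes, 0.12% were called higher and 0.0481% lower. In bulk tissue, a change in the number of cells of a type and a change in RNA per cell cannot be told apart.

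Of the 9 enzymes, 8 passed the low-count filter and none of these 8 passed the test between the genotypes. In edgeR, 0 had an adjusted p under 0.05, beside 0.12% of all tested genes called higher and 0.0481% called lower, and in DESeq2 also 0. One of them, Hsd11b1, had an unadjusted p under 0.05 in edgeR, against 6.39% of all tested genes (3.52% with a higher and 2.87% with a lower mean in the knockout). The ninth, Cyp19a1, was removed by the filter and is described from its counts. Of the 8, 4 had a higher and 4 a lower mean in the knockout, while 50.3% of all tested genes were lower. Their median log2 fold change was -0.03, beside -0.00149 over all tested genes. In 0 of the 8 did the control and knockout libraries fail to overlap, a separation seen in 4.17% of tested genes.

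**Figure D1:**
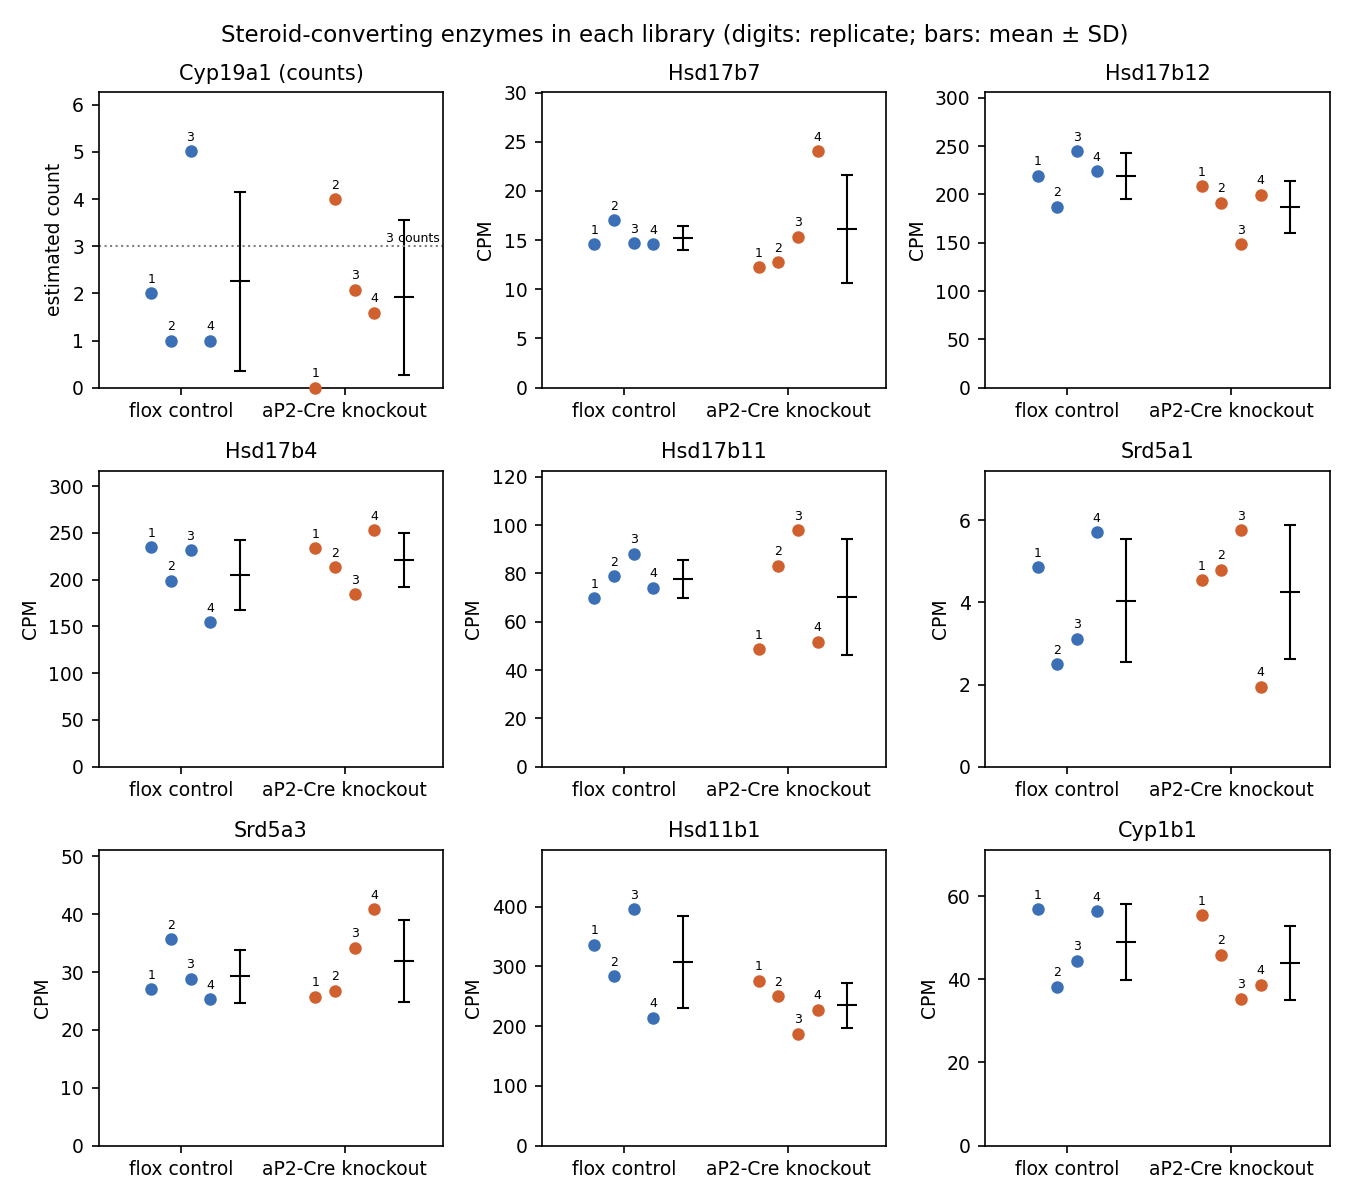
Each panel plots 1 enzyme, with a point per library (digits give the replicate), flox controls in blue and aP2-Cre knockouts in orange, and bars for mean ± SD (n = 4). Cyp19a1 is in estimated counts with a dotted line at 3 counts, the other 8 are in CPM, and in every panel the genotypes overlap, with 0 to 5.02 counts of Cyp19a1 per library.

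Cyp19a1, the targeted gene, lies on the minus strand of chromosome 9 (GRCm38, 54165937 to 54268110) and has several alternative first exons, which in vertebrates are used by different tissues. RefSeq (GRCm38.p6) gives 3 start sites for it. The 250 bases before each are shown because a 3′-end count does not tell which start was used. The bases after these 3 starts were not found in the GENCODE M21 transcripts of the gene. The distal start (54268164) lies upstream of the gene's 5′ limit in GENCODE (54268110). Capitals mark the letters AGGTCA, the core of sites bound by oestrogen and related nuclear receptors, and TATAAA, the TATA box, on either strand (a match on the reverse strand reads TGACCT or TTTATA, and a TATA match on each strand can overlap).
Distal start, chr9:54268165-54268414, minus strand: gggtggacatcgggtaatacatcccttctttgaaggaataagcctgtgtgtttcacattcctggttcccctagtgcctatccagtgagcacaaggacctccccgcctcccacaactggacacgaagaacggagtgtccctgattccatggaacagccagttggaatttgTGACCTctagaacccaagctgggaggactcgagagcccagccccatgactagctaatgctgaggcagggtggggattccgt
Middle start, chr9:54228915-54229164, minus strand: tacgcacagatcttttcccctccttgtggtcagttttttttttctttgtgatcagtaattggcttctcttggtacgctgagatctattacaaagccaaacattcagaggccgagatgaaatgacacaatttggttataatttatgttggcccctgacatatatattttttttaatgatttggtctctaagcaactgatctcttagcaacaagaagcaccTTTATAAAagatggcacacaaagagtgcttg
Proximal start, chr9:54193744-54193993, minus strand: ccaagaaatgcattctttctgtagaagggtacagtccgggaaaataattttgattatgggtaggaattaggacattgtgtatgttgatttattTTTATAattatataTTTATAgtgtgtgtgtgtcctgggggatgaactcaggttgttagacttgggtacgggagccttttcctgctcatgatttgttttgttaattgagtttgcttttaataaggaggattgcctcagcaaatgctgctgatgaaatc

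The distal window had 1 AGGTCA match, beginning 81 bases before the start, and no TATAAA. The middle window had TATAAA in forward orientation 29 bases before the start, in the stretch where TATA boxes usually sit, overlapped by a reverse match. The proximal window had 2 reverse matches, 143 and 157 bases before the start. Of 32851 windows of this length, 14% held AGGTCA and 12.4% held TATAAA. These matches describe the letters and do not show that a factor binds there.

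Control replicates 1 to 4 held 2.003, 1, 5.02 and 1 estimated counts of Cyp19a1, and knockout replicates 1 to 4 held 0, 4, 2.08 and 1.59. Both groups ran from at most 1 count to 4 or 5, and control replicate 3 and knockout replicate 2 were the high libraries. This amounted to 9.02 counts over the 4 control and 7.67 over the 4 knockout libraries. On the CPM scale, the means were 0.994 ± 0.834 CPM and 0.729 ± 0.667 CPM (SD, n = 4), a difference of -0.265 CPM (two-sided exact permutation p = 0.629, where 4 against 4 cannot give a p below 0.0286). Both genotypes averaged under 3 counts per library, the limit that a count of 0 allows (0.9752 to 1.90 CPM by library), so no fold is given. A difference was not detectable at this depth, and without control replicate 3 its sign turned, to 0.150 CPM. The deletion could not be checked for a second reason, since reads from the 3′ end outside the deleted exons would be counted in a knockout as well. Its transcripts share words of 31 bases with 1071 genes of the table, the closest gene sharing 19 of its 4470 words.

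The enzymes that make the strong forms of sex steroids were measured next. Hsd17b7 (chromosome 1, 169949535 to 169969241) reduces oestrone to oestradiol and also works in cholesterol synthesis. Its CPM was 14.6, 17.02, 14.7 and 14.6 in control replicates 1 to 4, against 12.2, 12.8, 15.4 and 24.1 for the knockout libraries in the same order, on 23 to 74 counts per library. The control libraries lay close together and the knockout libraries on both sides of them, with replicate 4 the highest. The log2 fold change was 0.09 with a standard error of 0.253 and a 95% interval of -0.45 to 0.64 (edgeR adjusted p = 0.982). Without knockout replicate 4 it was -0.17.

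Hsd17b12 (chromosome 2, 94032689 to 94157964) reduces 3-ketoacyl chains in the elongation of long fatty acids and has also been described as an oestrone reductase. It was at 219, 187, 245 and 224 CPM in control replicates 1 to 4 and at 209, 191, 149 and 200 CPM in knockout replicates 1 to 4. Control replicate 2 fell among the knockout values, while knockout replicate 3 was below all other libraries. The log2 fold change was -0.22 (SE 0.129, 95% interval -0.50 to 0.05, edgeR adjusted p = 0.863). In fold terms the interval reaches from 0.707 to 1.04 times the control level.

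Hsd17b4 (chromosome 18, 50128201 to 50196269) oxidises oestradiol to oestrone in peroxisomes, where its main known work is the hydration and dehydrogenation steps of fatty acid β-oxidation. Control replicates 1 to 4 had 234, 199, 231 and 155 CPM and knockout replicates 1 to 4 had 234, 213, 185 and 253 CPM. The ranges overlapped, with control replicate 4 the lowest of all. The log2 fold change of Hsd17b4 was 0.11 (SE 0.143, 95% interval -0.20 to 0.41, edgeR adjusted p = 0.948), and -0.00119 without control replicate 4.

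Hsd17b11 (chromosome 5, 103989762 to 104021919) is a lipid droplet protein that oxidises androstane steroids. Its control libraries lay at 69.7, 78.9, 88.1 and 74.2 CPM for replicates 1 to 4. The knockout libraries lay at 48.5, 83.1, 97.9 and 51.7 CPM, with replicates 1 and 4 below and replicate 3 above every control library. The coefficient of variation was 10.1% among controls and 34.3% among knockouts, and this difference in spread was not tested. The mean difference was a log2 fold change of -0.14 (SE 0.208, 95% interval -0.60 to 0.31, edgeR adjusted p = 0.949).

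The Srd5a reductases were at low and moderate counts. Srd5a1 (chromosome 13, 69573449 to 69611442), which reduces testosterone to the stronger androgen dihydrotestosterone, was counted 14, 6, 7 and 9 times in control replicates 1 to 4, and 10, 12, 15 and 6 times in the knockout libraries in the same order. Each genotype held libraries with as few as 6 counts and as many as 14 or more. At 4.04 ± 1.49 CPM in controls against 4.26 ± 1.63 CPM in knockouts (SD, n = 4), its 95% interval for the fold ran from 0.530 to 2.11 (log2 fold change 0.08, edgeR adjusted p = 0.992), an interval wider than that of any other tested enzyme. The sign turned without control replicate 2 (-0.09), control replicate 3 (-0.02) or knockout replicate 3 (-0.11).

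Srd5a3 (chromosome 5, 76140271 to 76155504) is named for the same ring reduction but is best known for reducing polyprenol to dolichol, the lipid on which N-linked glycans are built. It was at 27.0, 35.7, 28.9 and 25.4 CPM in control replicates 1 to 4 and at 25.8, 26.8, 34.2 and 40.9 CPM in knockout replicates 1 to 4. The highest value belonged to knockout replicate 4 and the lowest to control replicate 4, with the others mixed. The log2 fold change was 0.13 (SE 0.188, 95% interval -0.27 to 0.53, edgeR adjusted p = 0.949), and -0.02 without knockout replicate 4.

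Hsd11b1 (chromosome 1, 193221634 to 193264075) showed the largest difference among the 8 tested enzymes. It was at 336, 284, 396 and 214 CPM in control replicates 1 to 4 and at 276, 250, 187 and 227 CPM in knockout replicates 1 to 4, on 338 to 970 counts per library. Control replicates 1, 2 and 3 lay above all knockout libraries, while control replicate 4 lay below 3 of the 4 knockout libraries. The means were 307 ± 77.2 CPM and 235 ± 37.6 CPM (SD, n = 4). The fold in the knockout was 0.763 of the control level, a log2 fold change of -0.39 (SE 0.175, 95% interval -0.77 to -0.01), with an unadjusted p of 0.0446 and an edgeR adjusted p of 0.767. Without control replicate 4 the log2 fold change was -0.53 and the edgeR adjusted p 0.257, so Hsd11b1 passed the threshold in neither case. With 1 library left out, its unadjusted p ranged from 0.00265 to 0.177.

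Hsd11b1 is known to be expressed in adipocytes, and the adipocyte marker sum varied between libraries as well. That sum was 93362, 74956, 88960 and 73829 CPM in control replicates 1 to 4 and 88286, 74498, 62019 and 71816 CPM in knockout replicates 1 to 4. Control replicates 1 and 3 were high and control replicate 4 was the lowest control in both measures, and knockout replicate 3 was the lowest of all in both. Other libraries did not match. Control replicates 2 and 4 had similar sums but 284 and 214 CPM of Hsd11b1. Knockout replicate 1 had a sum far above that of control replicate 2 but less Hsd11b1, at 276 CPM. Of 20 adipocyte genes tested, 18 had a lower and 2 a higher mean in the knockout, while 50.3% of all tested genes were lower. Their median log2 fold change was -0.15, with 0 past the threshold. In edgeR, 2 were lower at an unadjusted p under 0.05, beside 2.87% of all tested genes. For 1 the libraries of the genotypes did not overlap, beside 4.17% of all tested genes. The endothelial sum was lowest in control replicate 4, at 936 CPM, the remaining controls having 1434 to 1609 CPM and the knockouts 1294 to 1573 CPM. In control replicate 4 the mesothelial sum was the highest of all libraries, at 396 CPM. Other controls had 133 to 269 CPM and the knockouts 156 to 254 CPM. The stromal sum over 18 genes separated the genotypes, at 10062 to 10323 CPM in controls and 9122 to 9956 CPM in knockouts. Of the 18 stromal genes, 14 had a higher and 4 a lower mean in the knockout, with 0 past the threshold. The part of these markers, and of the macrophage markers given above, in the Hsd11b1 difference was not tested.

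**Figure D2:**
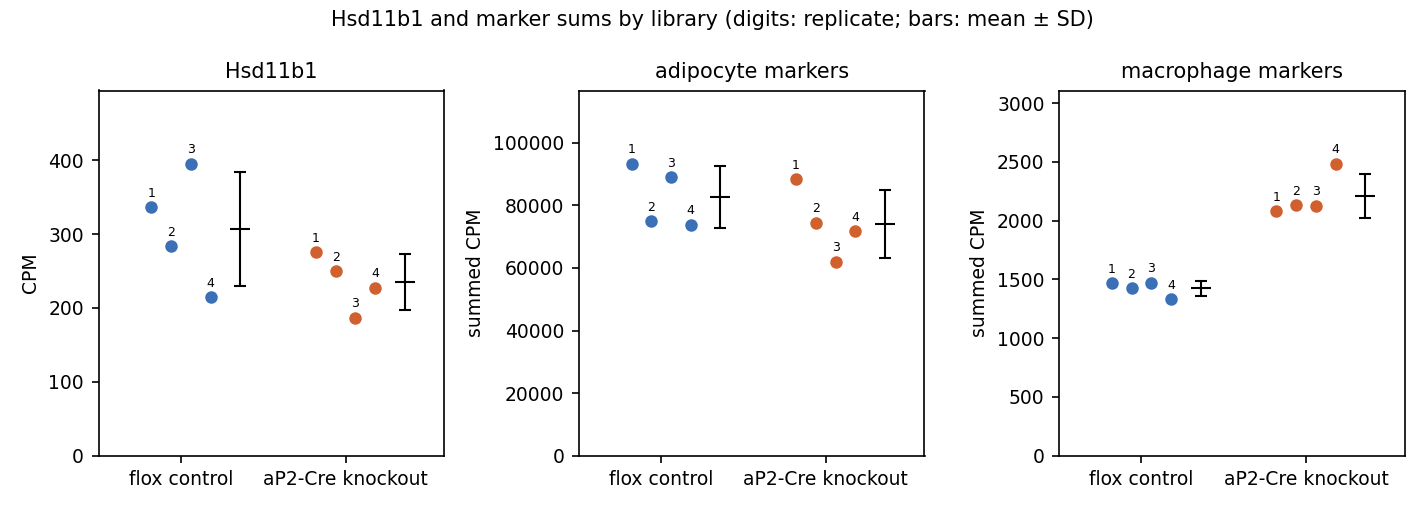
The 3 panels give Hsd11b1 in CPM and the summed CPM of 20 adipocyte and 22 macrophage markers, with a point per library (digits give the replicate) and mean ± SD (n = 4 per genotype). Hsd11b1 and the adipocyte sum overlap between the genotypes, while the macrophage sums lie at 1331 to 1473 CPM in the controls and 2080 to 2487 CPM in the knockouts.

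Cyp1b1 (chromosome 17, 79701537 to 79715061), the P450 that hydroxylates oestradiol and is induced through the aryl hydrocarbon receptor, completed the set. Control replicates 1 to 4 were at 56.9, 38.2, 44.5 and 56.4 CPM and knockout replicates 1 to 4 at 55.4, 45.9, 35.3 and 38.7 CPM. The genotypes overlapped, knockout replicate 3 being the lowest library. The log2 fold change was -0.16 (SE 0.176, 95% interval -0.54 to 0.22, edgeR adjusted p = 0.941).

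**Figure D3:**
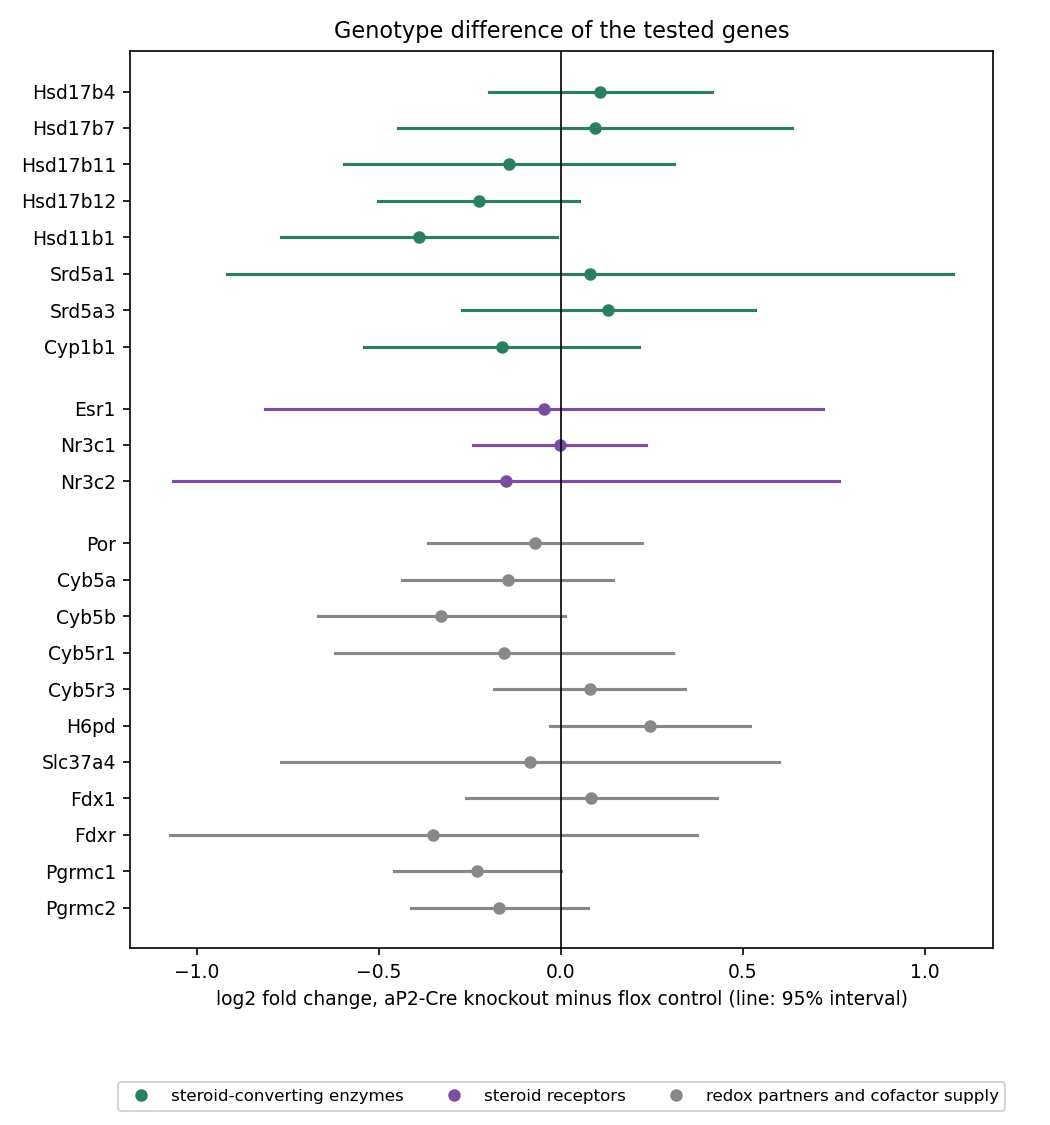
Points are log2 fold changes, knockout minus control, and lines their 95% intervals from edgeR, for 8 enzymes, 3 of the 4 tested steroid receptors and 11 redox partners past the low-count filter. Every interval but that of Hsd11b1 (-0.77 to -0.01) includes 0, and that of Srd5a1, at 6 to 15 counts per library, is the widest among the enzymes.

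The receptors for the products of these enzymes were examined from a list of 7. Of these, 4 were tested and 0 passed, with 0 higher and 4 lower. The glucocorticoid receptor gene Nr3c1 was at 278 ± 30.2 CPM in controls against 278 ± 16.01 CPM in knockouts (SD, n = 4), with a 95% interval for the fold of 0.846 to 1.18. The oestrogen receptor gene Esr1 varied widely, from 78.4 to 162 CPM among controls and from 60.8 to 155 CPM in the knockout libraries, and its log2 fold change of -0.05 carried an interval of -0.81 to 0.72. The mineralocorticoid receptor gene Nr3c2 had 6 to 24 counts per library (log2 fold change -0.15, edgeR adjusted p = 0.982). Esr2, Gper1 and Pgr, which encode the second oestrogen receptor, a membrane oestrogen receptor and the progesterone receptor, were removed by the filter with 23.7, 49 and 31 counts in all. Their differences were not detectable at this depth (exact permutation p = 0.257, 0.171 and 0.486).

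P450 and dehydrogenase reactions depend on electron donors and on cofactor supply, covered by a list of 12 genes. Of these, 11 were in the table and tested and 0 passed, with 3 higher and 8 lower and a median log2 fold change of -0.15. The gene for the electron donor of microsomal P450 enzymes such as aromatase, Por, was at 231 ± 34.2 CPM in controls against 220 ± 34.2 CPM in knockouts (SD, n = 4; edgeR adjusted p = 0.969). H6pd, which generates the NADPH that Hsd11b1 uses inside the endoplasmic reticulum, was at 206, 179, 223 and 152 CPM in control replicates 1 to 4 and at 247, 234, 205 and 216 CPM in knockout replicates 1 to 4. Its mean was higher in the knockout, unlike that of Hsd11b1, but control replicate 3 lay above 2 of the knockout libraries and the gene did not pass (log2 fold change 0.25, edgeR adjusted p = 0.816). Slc37a4, which brings glucose phosphate to H6pd, had a log2 fold change of -0.08. Among the cytochrome b5 genes and their reductases the values were -0.15 for Cyb5a, -0.33 for Cyb5b, -0.16 for Cyb5r1 and 0.08 for Cyb5r3 on the log2 scale. Fdx1 and Fdxr, the electron carriers of mitochondrial steroidogenic P450 enzymes, were at 0.08 and -0.35, and the haem-binding membrane proteins Pgrmc1 and Pgrmc2 at -0.23 and -0.17.

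The list held 43 other enzymes, of which the table had 41 and the filter kept 11, and 4 had 0 counts in all libraries. Among the tested genes 0 passed, with 3 higher and 8 lower and a median log2 fold change of -0.07. Tecr alone had an unadjusted p under 0.05 (0.0131, log2 fold change -0.34, edgeR adjusted p = 0.603). Tecr encodes an enoyl reductase of the same structural family as the Srd5a reductases that works after Hsd17b12 in fatty acid elongation, and it belongs to both lists. The following genes were picked after their values were seen. Over the 8 libraries there were 3 counts for Cyp17a1, 45.0 for Cyp11a1, 8 for Hsd17b1 and 0 for Hsd17b3, enzymes of sex steroid synthesis. Hsd3b2, a hydroxysteroid dehydrogenase gene of the same path, had 404 estimated counts and was tested (21.2 ± 4.70 CPM in controls against 20.6 ± 4.81 CPM in knockouts, SD, n = 4; edgeR adjusted p = 0.992). Its estimated counts were not whole in any library, and sequence that Hsd3b2 shares with other genes was not examined. Oestrogen sulphotransferase Sult1e1, which inactivates oestrogens, was at 128 ± 11.1 CPM in controls against 104 ± 23.1 CPM in knockouts (SD, n = 4), with a log2 fold change of -0.30 and an edgeR adjusted p of 0.812.

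Genes that deliver cholesterol to steroid synthesis had 8 higher and 2 lower among 10 tested, with a median of 0.12 and 0 passing. Npc1, which exports cholesterol from lysosomes, had the only unadjusted p under 0.05 among them (37.9 ± 2.62 CPM in controls, 49.3 ± 10.8 CPM in knockouts, SD, n = 4; edgeR adjusted p = 0.713). The macrophage marker sum, which was higher in the knockout libraries, stands beside this value and its part in it was not tested.

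Genes known to respond to the hormones were counted as well. Of 20 glucocorticoid-responsive genes, all tested, 9 were higher and 11 lower, the median log2 fold change was -0.02 and 0 passed. Fkbp5, a widely used glucocorticoid target that is named here after its values were seen, was at -0.29 (edgeR adjusted p = 0.863). Mt2, a metallothionein gene, and Dusp1, a MAP kinase phosphatase gene that also belongs to the immediate early response, had unadjusted p-values of 0.0105 and 0.0215, with log2 fold changes of 0.45 and 0.70 and edgeR adjusted p-values of 0.562 and 0.689. In both, the 4 knockout libraries were above the 4 control libraries. A separation in either direction was seen in 4.17% of all tested genes, and both genes were named for their low p-values. Mt1, another metallothionein gene of the list, named after its values were seen, was at -0.01 (edgeR adjusted p = 0.997). Of 14 androgen-responsive genes, 11 were tested, 7 were higher and 4 lower, and the median was 0.08. Fkbp5 and Zbtb16 belong to both the glucocorticoid and the androgen list, so the lists are not separate readouts. Of 15 oestrogen-responsive genes, known mostly from other tissues, 12 were tested, 3 were higher and 9 lower, and the median was -0.10. In neither list did a gene have an unadjusted p under 0.05.

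Several of the enzymes have a second role outside steroid metabolism, and their partners there were listed too. Around Hsd17b4, 15 of 16 genes of peroxisomal β-oxidation were tested, of which 2 were higher and 13 lower, with a median log2 fold change of -0.16 and 0 passing. Ehhadh, the bifunctional enzyme that runs the same 2 steps as Hsd17b4 on other substrates, was at 25.3, 14.9, 20.9 and 12.04 CPM in control replicates 1 to 4 and at 5.90, 13.2, 7.29 and 7.15 CPM in knockout replicates 1 to 4. Knockout replicate 2 alone reached into the control range. The fold was 0.455 of the control level (log2 fold change -1.14, SE 0.316, unadjusted p = 0.00279, edgeR adjusted p = 0.363), on 13 to 73 counts per library. Scp2, the thiolase and sterol carrier of the pathway, had a log2 fold change of -0.40 (unadjusted p = 0.0181, edgeR adjusted p = 0.678). Hsd17b4 itself had a higher mean in the knockout (log2 fold change 0.11).

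Around Hsd17b12, 9 of 12 fatty acid elongation genes were tested, 2 higher and 7 lower (median -0.13), with Tecr the only one at an unadjusted p under 0.05. Around Hsd17b7, all 22 cholesterol synthesis genes were tested, 8 higher and 14 lower (median -0.07), and Idi1, the isopentenyl diphosphate isomerase gene, had an unadjusted p of 0.0490 (log2 fold change -0.46, edgeR adjusted p = 0.775). Around Hsd17b11, 16 of 18 lipid droplet genes were tested, 4 higher and 12 lower (median -0.11), with 0 at an unadjusted p under 0.05. Around Srd5a3, all 22 genes of dolichol synthesis and N-glycan assembly were tested, 10 higher and 12 lower (median -0.04). Dolk, the dolichol kinase gene, had an unadjusted p of 0.0348 (101 ± 4.48 CPM in controls, 83.8 ± 9.43 CPM in knockouts, SD, n = 4; edgeR adjusted p = 0.729). Its knockout libraries were all below its control libraries, and 4.17% of all tested genes separated in either direction. Around Cyp1b1, 7 of 11 genes of the aryl hydrocarbon receptor pathway were tested, 5 higher and 2 lower (median 0.14), with 0 at an unadjusted p under 0.05. No gene of these 5 lists passed the adjusted threshold in edgeR.

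**Figure D4:**
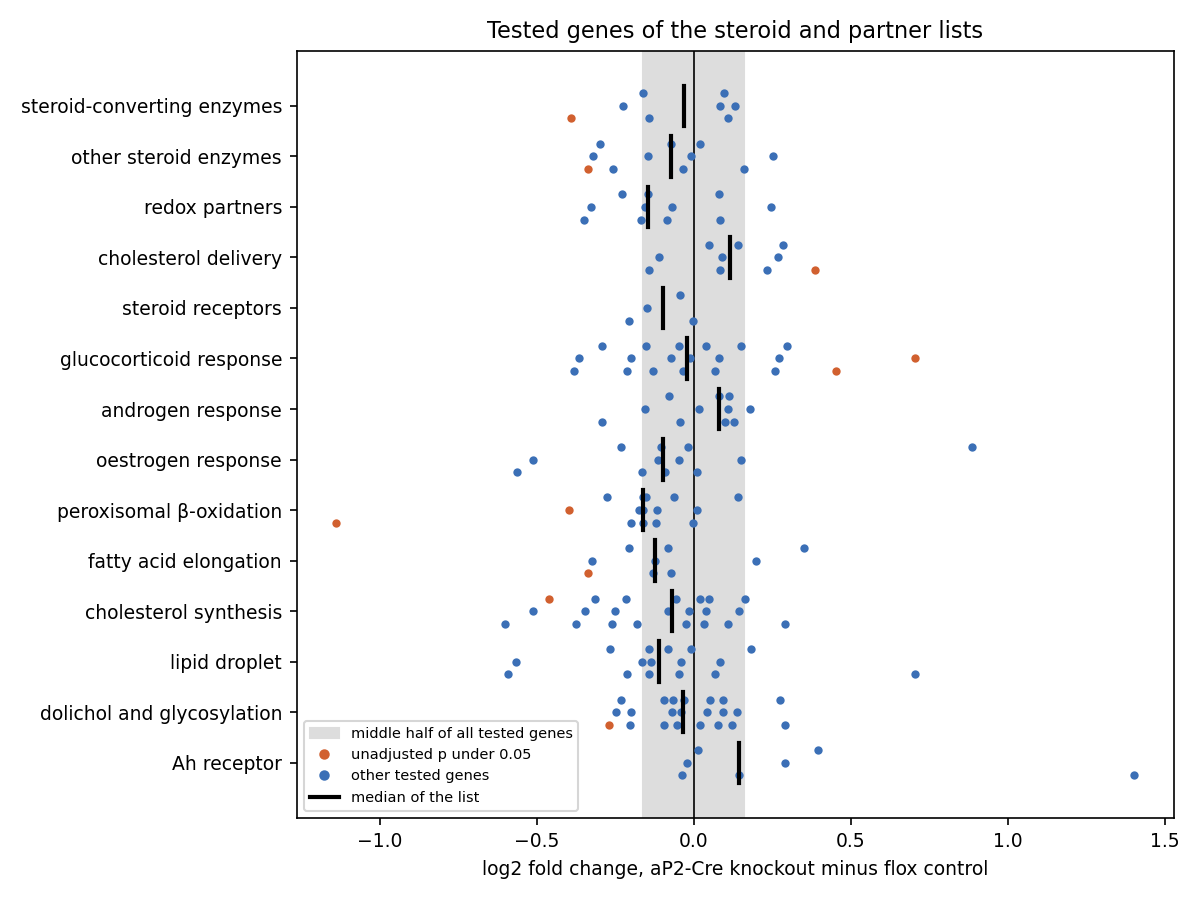
Each row is a gene list and each point a tested gene's log2 fold change, knockout minus control, orange where the unadjusted p was under 0.05, with a black bar at the list's median and a grey band between the quartiles of all tested genes (-0.16 to 0.16). The medians run from -0.16 for peroxisomal β-oxidation, where 13 of 15 genes were lower, to 0.14 for the aryl hydrocarbon receptor list, and the band describes single genes and is no test of a median.

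The genes whose values followed each enzyme most closely over the 8 libraries were sought among tested genes with a mean of at least 10 CPM, by the root mean square difference of log2 CPM centred on each gene's mean. For Hsd11b1, whose own log2 values spread by 0.277, they were the pseudogene Gpx4-ps2 (0.104), the acid phosphatase gene Acp5 (0.117) and the growth factor gene Nrg4 (0.126), all with a lower mean in the knockout. For Hsd17b12 they were Idh3a (0.0614), Chmp1b (0.0779) and Atxn2 (0.0805), and for Hsd17b4 Msn (0.0659), Mgll (0.0670) and Nploc4 (0.0679). Hsd17b7 was nearest to Gna12 (0.0734), Hsd17b11 to Tgif1 (0.1202), Srd5a1 to Tmem35b (0.146), Srd5a3 to Cfb (0.0489) and Cyp1b1 to Ndufs1 (0.0465). These are descriptions over 8 libraries that share their sequencing depth and scaling, and none of the named genes passed the threshold between genotypes. The genotype difference was part of the pattern matched, so the shared direction for Hsd11b1 and the lack of passing genes follow largely from the matching.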

How the data were processed

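Per the labels' protocols, total RNA went into BRB-seq, a 3′-end method with oligo-dT priming, Tn5 tagmentation, 10 PCR cycles and a 51-base insert read. Salmon and the GRCm38 build are named in the submitters' processing notes, without a version, and the use of molecular identifiers is not given in the sources used here. What the authors deposited is a table of estimated counts, not normalized; 59.6% of values above 0 were whole. They were rounded for testing, as edgeR needs whole numbers. Identifiers were matched without version to GENCODE M21 (34582 of 34866 genes), whose coordinates are given.

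Knockout was set against control in R 4.3.3 with edgeR 4.0.16 (quasi-likelihood, robust), a model of genotype alone, TMM factors, the filterByExpr filter and Benjamini-Hochberg adjustment over 12480 genes at 0.05. Fold changes are knockout minus control with 95% intervals. CPM used the TMM-scaled totals. Low genes were compared by two-sided exact permutation tests. The test was also run on simulated data.

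Alternatives were RLE factors, plain totals for Cyp19a1, no low-count filter, DESeq2 1.42.0, the replicate number as a block, and leaving out each library. The genes named are the 9 enzymes, the receptors and redox partners, up to 6 genes per other list with an unadjusted p under 0.05, the nearest in pattern per enzyme (up to 3), and cell type markers past the threshold or at 0. Some genes under this rule are counted in their lists but not reported here by name. The members and lists were chosen with earlier results of these data known. Replicate pairs differed by 4.48 to 9.4 in chi-square per degree of freedom, more than the sampling noise of independent counts. Amplified reads may not be independent, so this value cannot show that the libraries are separate replicates. Each library was counted as 1 replicate. The labels do not say that libraries of a group came from separate animals, so p-values measure the spread between these samples. Intervals and floors for single libraries cover counting error only, since amplified reads may not be independent molecules.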

Additional observations from a re-analysis of the deposited data

Results flagged for a closer look

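In groups of 4 libraries, 1 library stood apart from the other 3 by more than Dixon's critical share of the group's range in 3 of 70 groups examined, where chance gives 3.5 at about 1 in 20. For Cyp19a1 this was control replicate 3, whose 5.02 counts make 2.23 CPM, the remaining controls lying between 0.415 and 0.694 CPM. For Hsd17b7 it was control replicate 2 with 17.02 CPM, the remaining controls lying between 14.6 and 14.7 CPM, a gap that is small beside the 12.2 to 24.1 CPM of the knockout libraries. Fdx1, the mitochondrial ferredoxin gene, was at 102 CPM in knockout replicate 2, against 63.7 to 69.6 CPM in the other knockout libraries.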

How the results depend on the processing

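No enzyme passed the threshold under any setting run (RLE factors, no low-count filter, DESeq2, the replicate block, or 1 library left out), and 0 or 1 had an unadjusted p under 0.05. The number of all genes past it was 21, and became 58 without the filter, 55 with DESeq2, 6 with the replicate block, and 4 to 43 when 1 library was left out. The cause was not tested. Same-numbered libraries deviated together by correlations of 0.25, -0.06, -0.00476 and -0.24. The sample titles give them only a number in common, and the correlations cannot decide whether they share more. With the block as paired differences, Cyp19a1 kept its -0.265 CPM (exact sign-flip p = 0.625, smallest possible 0.125), and with 1 library left out it ranged from -0.552 to 0.150 CPM.

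With 1 library left out, log2 fold changes that turned sign ranged from -0.00119 to 0.185 for Hsd17b4, -0.173 to 0.202 for Hsd17b7, -0.107 to 0.335 for Srd5a1, -0.0174 to 0.241 for Srd5a3, -0.166 to 0.0238 for Por, -0.28 to 0.0259 for Cyb5r1, -0.0102 to 0.119 for Cyb5r3, -0.376 to 0.118 for Slc37a4, -0.0965 to 0.17 for Fdx1, -0.299 to 0.194 for Esr1, -0.0465 to 0.0726 for Nr3c1 and -0.395 to 0.189 for Nr3c2. Nr3c1 also turned with the replicate block, to 0.00258. Of the other enzymes, Hsd11b1 (-0.526 to -0.245), Hsd17b11, Hsd17b12 and Cyp1b1 had the same sign in these fits, and so did Ehhadh (-1.43 to -0.935). Cell type markers, nearest-pattern genes and genes named after their values were seen were not refitted one library short. Depth limits Cyp19a1, Srd5a1 and the receptors removed by the filter.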
